A study of Mus musculus with 12 samples.

Results

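The genes described here are 6 ATP-binding cassette (ABC) pumps that carry drugs and their conjugates out of cells, Abcb1a, Abcb1b, Abcg2, Abcc2, Abcc3 and Abcc4, and 3 receptors that sense foreign compounds, Nr1i2, Nr1i3 and Ahr. They were chosen by gene symbol, and each of the 9 was read by a single feature of the array, out of 19938 genes tested. The data come from mouse duodenum of strain 129 at postnatal day 30, after weaning, and at day 15, before it. At each age there were 3 arrays from mice in which Onecut2, which encodes a cut-type homeodomain transcription factor, had been ablated (knockout, KO) and 3 from wild type (WT) mice. Every array carried a pool of total RNA from 5 to 8 animals of mixed sex, and no group was treated. The labels do not say how the gene was ablated or in which cells. The p-values measure the spread between these pools. The questions of the design are how the genotypes differ at each age and how each genotype changes with age.

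In the enterocyte, the absorptive cell of the gut lining, P-glycoprotein (encoded in mice by Abcb1a and Abcb1b), the breast cancer resistance protein (Abcg2) and the multidrug resistance protein Mrp2 (Abcc2) sit in the luminal membrane and return compounds to the gut lumen. Mrp3 (Abcc3) sits on the blood side, and Mrp4 (Abcc4) exports cyclic nucleotides and conjugates. Nr1i2 encodes the pregnane X receptor and Nr1i3 the constitutive androstane receptor, nuclear receptors that bind DNA with a retinoid X receptor. Ahr encodes the aryl hydrocarbon receptor, which binds DNA with Arnt. When activated, the receptors switch on genes for drug-metabolising enzymes and pumps, so their activity is read from their target genes rather than from their own transcript level.

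Values are log2 expression values from RMA, which subtracts background, gives all arrays a common distribution of values and combines the probes of each feature. A difference of 1 is a doubling, and levels of different features cannot be ranked against each other. Differences were tested with limma on all 12 arrays and adjusted by Benjamini-Hochberg over all 19938 genes, and a gene that passed had an adjusted p below 0.05. Onecut2 itself was lower on every KO array, at 8.18 to 8.25 in KO against 9.50 to 9.63 in WT at day 30, and at 8.09 to 8.20 in KO against 9.55 to 9.69 in WT at day 15. The 12 markers of intestinal epithelium had a mean between 11.73 and 11.93 on each array. Markers of hepatocytes, cells rich in Nr1i3 and Abcc2, had a mean of 5.98 to 6.17 over 9 genes, with albumin (Alb) at 5.37 to 5.92, while the group means of Ttr ran from 8.00 to 9.09. Pancreas acinar markers were high on all arrays, with a mean of 12.34 to 13.54. The arrays carry bulk duodenal RNA, in which fewer cells of a type and less RNA per cell cannot be told apart.

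The pump genes that passed the test between genotypes at day 30 were Abcb1a and Abcc2, so their promoters are shown, with that of Abcb1b, which lies next to Abcb1a, encodes a closely related protein and did not pass. The sequences run from 250 bases before to 50 bases after the RefSeq gene start of build GRCm38.p6, and all lie on the plus strand, at chr5:8566841-8567140 for Abcb1a, chr5:8797897-8798196 for Abcb1b and chr19:43782058-43782357 for Abcc2. Capitals mark matches on either strand to AGTTCA or AGGTCA, half-sites bound by nuclear receptors such as Nr1i2 and Nr1i3, or to TGACNNNGC, the core of the antioxidant response element bound by Nfe2l2.
Abcb1a: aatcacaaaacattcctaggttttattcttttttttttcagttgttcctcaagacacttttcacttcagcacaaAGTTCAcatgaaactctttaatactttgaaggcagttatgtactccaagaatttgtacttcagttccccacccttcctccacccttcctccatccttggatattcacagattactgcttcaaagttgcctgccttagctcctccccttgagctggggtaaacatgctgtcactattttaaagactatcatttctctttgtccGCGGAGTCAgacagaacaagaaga
Abcb1b: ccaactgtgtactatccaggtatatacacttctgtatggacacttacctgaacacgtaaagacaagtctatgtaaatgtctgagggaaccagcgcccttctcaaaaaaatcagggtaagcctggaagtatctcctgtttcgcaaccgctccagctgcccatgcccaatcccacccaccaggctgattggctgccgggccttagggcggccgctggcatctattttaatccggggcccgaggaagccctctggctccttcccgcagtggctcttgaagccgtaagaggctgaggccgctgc
Abcc2: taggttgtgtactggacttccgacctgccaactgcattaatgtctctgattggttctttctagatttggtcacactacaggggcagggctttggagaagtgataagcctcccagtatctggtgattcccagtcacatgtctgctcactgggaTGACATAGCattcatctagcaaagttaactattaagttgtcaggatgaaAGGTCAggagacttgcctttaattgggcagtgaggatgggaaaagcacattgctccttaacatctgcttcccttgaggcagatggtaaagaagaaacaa

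The Abcb1a window held AGTTCA at position -176 and TGACNNNGC, on the opposite strand, at position 27, counted from the gene start. The Abcc2 window held TGACNNNGC at position -98 and AGGTCA at position -49. The Abcb1b window held none of these. The motif ATTGAT, a core recognised by Onecut factors, and GCGTG, the core of the site bound by Ahr with Arnt, were in none of these 3 windows. Pumps that did not pass at day 30 also had matches, in windows not printed here. AGGTCA lay at positions -212, -121 and -197 in Abcg2 windows, and TGACNNNGC at positions -25 and -23 in Abcc4 windows. GCGTG was in windows of both genes. Of 32851 promoter windows of the same length, 13.99% held AGTTCA, 16.3% AGGTCA, 12.4% TGACNNNGC, 7.54% ATTGAT and 32.4% GCGTG, so each match is common and only describes the window. The reverse complement of AGGTCA begins with TGAC, as TGACNNNGC does, so those motifs can overlap. RefSeq windows were found for 7 of the 9 genes.

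At day 30, KO duodenum had less Abcb1a and less Abcc2 than WT duodenum, while the other pumps and all 3 receptors did not pass the test. Of the 9 genes, 2 passed, both lower, where 1.98% of all genes passed in either direction, 1.04% higher and 0.943% lower.

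Abcb1a stood at 9.73, 9.66 and 9.68 on the KO arrays, against 10.32, 10.57 and 10.72 on the WT arrays. The groups did not overlap, and the lowest WT array was well above the highest KO array. The mean was 9.69 ± 0.03 in KO and 10.53 ± 0.20 in WT (SD, n = 3 each), a log2 difference of -0.84 (SE 0.14, limma adjusted p = 0.0063), or a 1.79-fold lower level in KO. It was the 23rd largest fall among the 188 genes that were lower. This gene encodes the main P-glycoprotein of the mouse gut, whose loss causes spontaneous colitis in some mouse strains.

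Abcc2, which encodes the luminal exporter of glutathione, glucuronide and sulfate conjugates, stood at 11.43, 11.45 and 11.16 on the KO arrays, against 11.846, 11.995 and 12.085 on the WT arrays. Again the groups did not overlap. The mean was 11.35 ± 0.16 in KO and 11.98 ± 0.12 in WT (SD, n = 3 each), a log2 difference of -0.63 (SE 0.09, limma adjusted p = 0.0025), or 1.55-fold lower. Both calls held under all 23 alternatives run, with log2 differences from -0.95 to -0.75 for Abcb1a (highest adjusted p 0.04) and from -0.69 to -0.54 for Abcc2 (highest adjusted p 0.024).

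The remaining 4 pumps did not pass at day 30. Abcc3 ran from 10.45 to 10.67 in KO and from 10.62 to 10.97 in WT, with a log2 difference of -0.25 (95% interval -0.52 to 0.02). Abcb1b ran from 6.04 to 6.38 in KO and from 6.22 to 6.67 in WT (log2 difference -0.17, interval -0.43 to 0.08). Both pairs of groups overlapped, and the intervals leave room for falls of Abcc3 and Abcb1b short of that of Abcb1a. Abcg2 differed by 0.004 (interval -0.13 to 0.13) and Abcc4 by 0.06 (interval -0.06 to 0.18), so changes of either as large as that of Abcc2 lie outside these intervals.

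**Figure D1:**
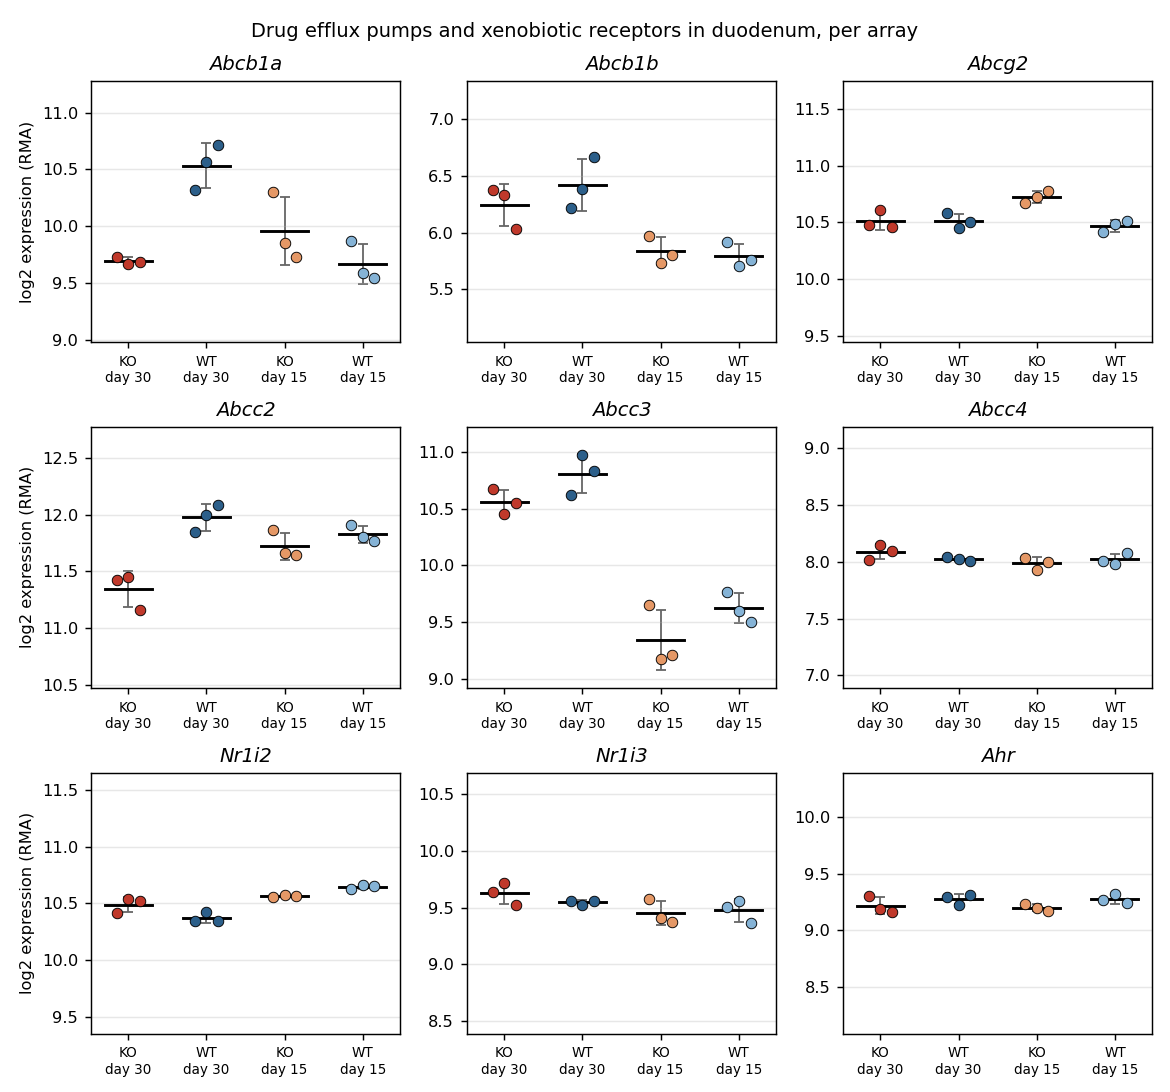
Log2 expression (y axis, the same span of log2 units in each panel) of the 6 pump and 3 receptor genes on each of the 12 arrays, by group on the x axis. Points are arrays, black bars group means and whiskers SDs over 3 arrays. Abcb1a and Abcc2 are lower in KO than in WT at day 30, and Abcc3 is higher at day 30 than at day 15 in both genotypes. Ahr and Abcc4 have the smallest ranges over the 12 arrays, 0.157 and 0.215.

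None of the 3 receptor genes passed in limma at day 30, with 1 at an unadjusted p below 0.05. Nr1i2 stood at 10.41, 10.54 and 10.52 in KO, against 10.34, 10.43 and 10.35 in WT, with overlapping groups (log2 difference 0.12, SE 0.05, limma adjusted p = 0.41). Nr1i3 differed by 0.08 (95% interval -0.08 to 0.23, limma adjusted p = 0.80) and Ahr by -0.06 (interval -0.18 to 0.06, limma adjusted p = 0.80). For all 3, differences as large as that of Abcc2 lie outside the intervals.

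In limma 0 of 12 smooth muscle, 10 endothelial and 11 T cell and intraepithelial lymphocyte markers passed (1, 0 and 0 at an unadjusted p below 0.05). Of all genes, 1.98% passed between genotypes at day 30. Of the 12 epithelial markers only Krt18, a keratin gene, passed, lower in KO (-0.30, limma adjusted p = 0.028), and the list's mean ran from 11.86 to 11.89 in KO and from 11.88 to 11.93 in WT. Pancreas acinar markers had a mean of 12.52 to 13.03 in KO and of 12.80 to 13.54 in WT, with a median difference of -0.36, 0 of 8 passing and 2 at an unadjusted p below 0.05. Of 9 hepatocyte markers, Tat was higher (0.72, limma adjusted p = 0.018) and Ttr lower (-0.44, limma adjusted p = 0.024) in KO, with albumin at -0.01. With the arrays shifted to an equal epithelial marker mean Abcb1a differed by -0.82 (adjusted p = 0.0047) and Abcc2 by -0.61 (adjusted p = 0.0023), and with a covariate for the smooth muscle mean Abcb1a differed by -0.83 (adjusted p = 0.015) and Abcc2 by -0.61 (adjusted p = 0.0067). The part of the pancreas and hepatocyte markers was not tested. Xist, a measure of the female share of a pool, ran from 10.33 to 10.81 in KO and from 9.26 to 10.67 in WT at day 30. With Xist as a covariate Abcb1a differed by -0.90 and Abcc2 by -0.63, both still passing.

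At day 15 only Abcg2 passed between genotypes, with a small rise in KO. Of the 9 genes 1 passed, where 3.83% of all genes did in either direction, 1.81% higher and 2.03% lower. Abcg2, whose product pumps urate, porphyrins and many drugs, stood at 10.67, 10.72 and 10.78 in KO, against 10.41, 10.49 and 10.51 in WT. The groups did not overlap, and the log2 difference was 0.25 (SE 0.06, limma adjusted p = 0.039), or 1.19-fold. The call held in 11 of 23 alternatives. It ended with the arrays shifted to an equal epithelial marker mean (0.17, adjusted p = 0.12). It also ended with the smooth muscle mean (0.245, SE 0.11, adjusted p = 0.42) or Xist (0.233, SE 0.06, adjusted p = 0.067) as a covariate. The same held with the replicate block (0.25, adjusted p = 0.07), and with only the day 15 arrays in the fit (0.25, adjusted p = 0.069). Without KO day 15 replicate 2 or 3 the adjusted p was 0.13 or 0.14, without WT day 15 replicate 1, 2 or 3 it was 0.12, 0.1 or 0.077, without KO day 30 replicate 1 it was 0.053, and without WT day 30 replicate 3 it was 0.058. At that age the epithelial marker mean ran from 11.82 to 11.85 in KO and from 11.73 to 11.77 in WT. The smooth muscle mean ran from 10.46 to 10.64 in KO and from 10.74 to 10.84 in WT. All 12 smooth muscle markers differed by -0.31 to -0.14, with 3 passing in limma and 11 at an unadjusted p below 0.05. Of 11 T cell and intraepithelial lymphocyte markers, 2 passed, both higher in KO, and 6 were at an unadjusted p below 0.05. The pancreas acinar mean did not overlap, at 12.34 to 12.87 in KO and 13.02 to 13.09 in WT, with a median difference of -0.35, 0 of 8 markers passing in limma and 4 at an unadjusted p below 0.05. The part of the pancreas and T cell markers was not tested.

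The other 8 genes did not pass at day 15. Abcb1a stood at 10.30, 9.85 and 9.73 in KO, against 9.87, 9.59 and 9.54 in WT, with overlapping groups (log2 difference 0.29, SE 0.14, limma adjusted p = 0.34). Abcc3 had a log2 difference of -0.28 (95% interval -0.55 to -0.004, limma adjusted p = 0.32). Without KO day 15 replicate 1 that difference was -0.43 and passed (adjusted p = 0.049). KO day 15 replicate 1 had the highest value of its group in 7 of the 9 genes. WT day 15 replicate 1, which stayed in that fit, had the highest value of its group in 4, among them Abcc3 (9.76). Abcc2 differed by -0.10 (interval -0.30 to 0.09), and Abcb1b, Abcc4, Nr1i2, Nr1i3 and Ahr differed by between -0.08 and 0.04. Nr1i2 and Ahr were lower on every KO array than on any WT array, by -0.08 (limma adjusted p = 0.52) and -0.07 (limma adjusted p = 0.62), and did not pass.

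With age, the KO duodenum gained Abcc3 and Abcb1b transcripts and lost some Abcg2 and Abcc2, while Abcb1a did not pass the test. Of the 9 genes 4 passed, with 2 higher (Abcb1b, Abcc3) and 2 lower (Abcg2, Abcc2), where 31% of all genes passed, 13.8% higher and 17.2% lower. The pumps had a median log2 difference of -0.05, and all genes one of 0.03.

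Abcc3 in KO stood at 10.67, 10.45 and 10.55 at day 30, against 9.65, 9.17 and 9.21 at day 15. The log2 difference was 1.21 (SE 0.13, limma adjusted p = 1.0e-05), or 2.32-fold. Abcb1b stood at 6.38, 6.33 and 6.04 in KO at day 30, against 5.97, 5.73 and 5.81 at day 15 (log2 difference 0.41, SE 0.12, limma adjusted p = 0.018).

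Abcc2 fell to 11.43, 11.45 and 11.16 in KO at day 30, against 11.86, 11.66 and 11.65 at day 15. The ages did not overlap, and the log2 difference was -0.38 (SE 0.09, limma adjusted p = 0.0066). Abcg2 stood at 10.48, 10.61 and 10.46 in KO at day 30, against 10.67, 10.72 and 10.78 at day 15, again without overlap (log2 difference -0.21, SE 0.06, limma adjusted p = 0.020). Abcb1a in KO had a log2 difference of -0.27 (interval -0.57 to 0.03, limma adjusted p = 0.17). In KO the receptors Nr1i2 (-0.07), Nr1i3 (0.17) and Ahr (0.02) and the pump Abcc4 (0.10) did not pass.

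The age calls of Abcb1b and Abcg2 in KO depended on single arrays. Abcb1b no longer passed without KO day 15 replicate 2 or 3 (adjusted p = 0.071 or 0.055) or KO day 30 replicate 1 or 2 (0.075 or 0.058). Abcg2 no longer passed without KO day 15 replicate 2 or 3 (adjusted p = 0.052 or 0.082) or KO day 30 replicate 1 or 3 (0.069 or 0.07). Abcg2 also did not pass with only the KO arrays in the fit (adjusted p = 0.051). Repeating the quantile normalization ended the call of Abcb1b (adjusted p = 0.052), while Abcc4 (0.16, adjusted p = 0.029) and Nr1i3 (0.21, adjusted p = 0.04) passed. Nr1i3 also passed with array weights (0.20, adjusted p = 0.041), and without KO day 15 replicate 1 (0.23, adjusted p = 0.034) or KO day 30 replicate 3 (0.22, adjusted p = 0.048).

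In the WT duodenum, measured on arrays not shared with KO, Abcc3 and Abcb1b were again higher at day 30, and so was Abcb1a. Of the 6 pumps, Abcb1a, Abcb1b and Abcc3 rose and none fell, and of the 3 receptors Nr1i2 fell. These 4 of 9 genes stand beside 29.3% of all genes passing in WT, 12.3% of all genes being higher and 17% lower at day 30. The pumps had a median log2 difference of 0.39, where the median over all genes was 0.02.

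Abcc3 in WT stood at 10.62, 10.97 and 10.84 at day 30, against 9.76, 9.60 and 9.50 at day 15. Its log2 difference was 1.19 (SE 0.13, limma adjusted p = 1.2e-05), or 2.28-fold, with no overlap between ages. The test of the difference between the genotypes' age changes gave 0.02 for Abcc3 (95% interval -0.36 to 0.41). Abcb1a had 10.32, 10.57 and 10.72 at day 30, against 9.87, 9.59 and 9.54 at day 15, a log2 difference of 0.87 (SE 0.14, limma adjusted p = 3.6e-04), or 1.83-fold. Every WT array of day 30 was above every WT array of day 15 for both genes.

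Abcb1b stood at 6.22, 6.38 and 6.67 at day 30, against 5.91, 5.71 and 5.76 at day 15 in WT, a log2 difference of 0.63 (SE 0.12, limma adjusted p = 0.0012). Its feature was dim on all 12 arrays, between 5.71 and 6.67, and whether its probes also bind the related Abcb1a transcript was not tested. Nr1i2 fell to 10.34, 10.43 and 10.35 in WT at day 30, against 10.63, 10.66 and 10.65 at day 15 (log2 difference -0.27, SE 0.05, limma adjusted p = 0.0012). In WT, Abcg2 (0.04), Abcc2 (0.15), Abcc4 (0.01), Nr1i3 (0.07) and Ahr (0.004) did not pass, and of these the interval of Abcc2 reached highest, to 0.35.

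**Figure D2:**
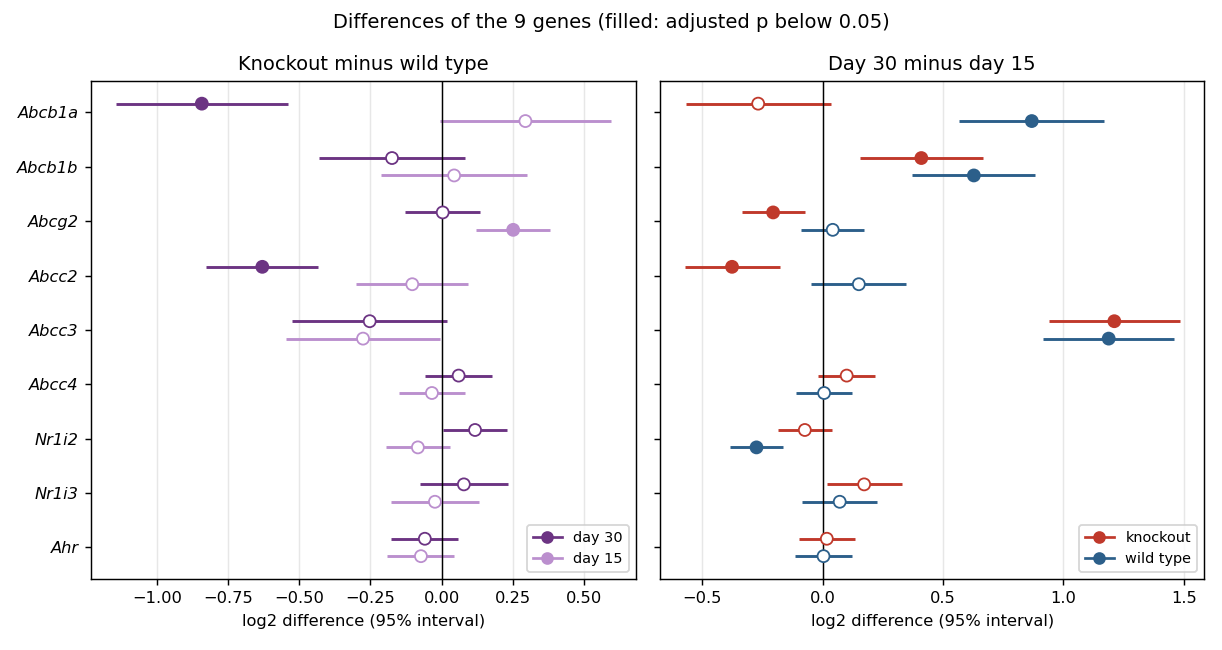
Log2 differences (x axis) of the 9 genes with 95% intervals from limma, for KO minus WT at each age (left) and day 30 minus day 15 in each genotype (right). Filled points passed at an adjusted p below 0.05. Abcb1a lies at -0.84 for KO minus WT at day 30, at -0.27 for the age change in KO and at 0.87 for the age change in WT.

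Cell type markers also moved with age. All 12 smooth muscle markers were lower at day 30 in each genotype, with a marker mean of 10.04 to 10.08 at day 30 against 10.46 to 10.64 at day 15 in KO, and of 10.02 to 10.19 at day 30 against 10.74 to 10.84 at day 15 in WT. Of 10 endothelial markers 9 were lower in each genotype, and of 11 T cell and intraepithelial lymphocyte markers 9 were higher in each. Of 12 epithelial markers 4 were higher and 2 lower in KO, and 7 were higher and 1 lower in WT. Of all genes, 31% passed with age in KO and 29.3% in WT. The smooth muscle mean did not overlap between ages. With that mean as a covariate, Abcc3 differed by 1.63 in KO (adjusted p = 0.1) and by 1.75 in WT (adjusted p = 0.28), Abcb1b by 0.79 in KO (adjusted p = 0.4) and by 1.14 in WT (adjusted p = 0.45), Abcb1a in WT by 1.01 (adjusted p = 0.59), and Nr1i2 in WT by -0.17 (adjusted p = 0.82). Abcc2 in KO differed by -0.15 (adjusted p = 0.86) and Abcg2 in KO by -0.22 (adjusted p = 0.68), so none of the 9 genes passed there. The SEs of Abcc3 and Abcb1a in WT were 0.56 and 0.65 in that fit, against 0.13 and 0.14 without the covariate. As the smooth muscle mean did not overlap between ages, age and muscle content cannot be told apart by that fit. With the arrays shifted to an equal epithelial marker mean, all 4 calls in KO and all 4 in WT held, with Abcc3 at 1.17 in KO and 1.04 in WT, and Abcb1a at 0.72 in WT. Xist, the measure of the female share of a pool, was lower at day 30 in WT (-1.03, limma adjusted p = 0.03), with overlapping ages. In KO it differed by -0.005. With Xist as a covariate all 4 calls in WT held. The part of the endothelial and T cell markers was not tested.

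The effect of genotype on Abcb1a depended on age. The genotype difference at day 30 minus that at day 15 was -1.14 for Abcb1a (SE 0.20, limma adjusted p = 0.025). It was 1 of 9 genes to pass, where 0.456% of all genes did and 0.226% in that direction. This test uses the same arrays as the comparisons above and adds no independent sample to them. Its call held in 12 of 22 alternatives, and over all 22 the value ran from -1.25 to -0.97. It ended with the smooth muscle mean (adjusted p = 0.19) or Xist (adjusted p = 0.11) as a covariate. Without KO day 15 replicate 2 the adjusted p was 0.054, without WT day 15 replicate 2 or 3 it was 0.077 or 0.072, without KO day 30 replicate 1, 2 or 3 it was 0.065, 0.063 or 0.054, and without WT day 30 replicate 2 or 3 it was 0.061 or 0.085. Abcc2 (-0.53, SE 0.13, limma adjusted p = 0.14), Abcg2 (-0.25, SE 0.09, limma adjusted p = 0.36) and Nr1i2 (0.20, SE 0.07, limma adjusted p = 0.39) did not pass, so for these a dependence on age was not shown. With an intensity trend in the prior, Abcc2 passed (adjusted p = 0.046).

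Abcb1a, Abcb1b and Abcb4, the gene of the phospholipid pump of bile, lie next to each other on chromosome 5. Of the 3 protein-coding genes on either side of Abcb1a in RefSeq, none passed in limma for genotype at day 30 or at day 15, with 2 at an unadjusted p below 0.05 at each age. Of all genes, 1.98% passed at day 30 and 3.83% at day 15. Rundc3b, which overlaps Abcb1a in the annotation, differed by -0.24 at day 30 (SE 0.12, limma adjusted p = 0.49) and by 0.39 at day 15 (SE 0.12, limma adjusted p = 0.10). With age its log2 difference was -0.27 in KO (limma adjusted p = 0.11), and in WT it rose by 0.37 (limma adjusted p = 0.034). Its signs were thus those of Abcb1a in all 4 comparisons, and whether the features of these overlapping genes share signal was not tested. Abcb4 differed by -0.09 at day 30 and by 0.06 at day 15. Crot, a peroxisomal carnitine acyltransferase gene next to Abcb4, differed by -0.24 at day 30 (SE 0.06, limma adjusted p = 0.054).

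**Figure D3:**
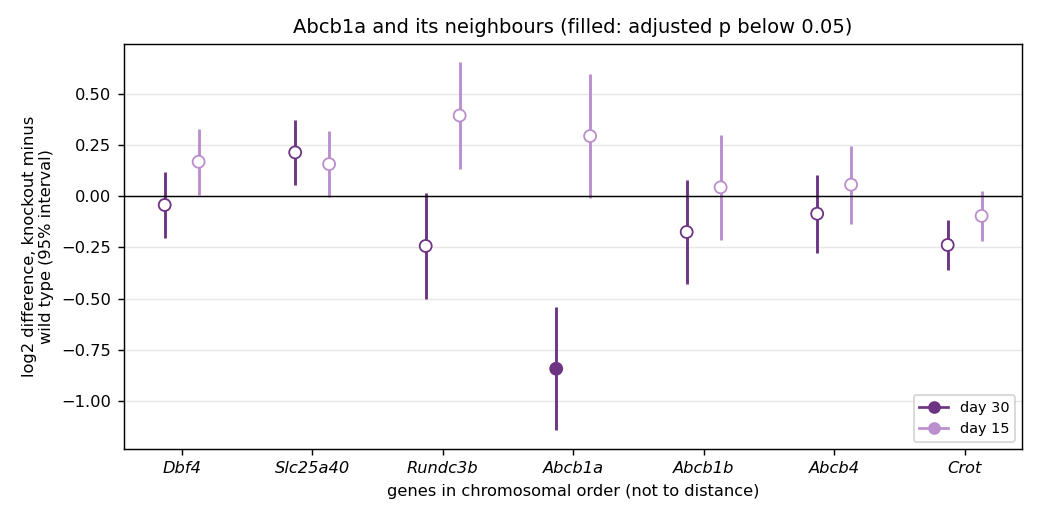
Log2 difference between KO and WT (y axis) with 95% limma intervals for Abcb1a and the 3 protein-coding genes on either side of it, in chromosomal order on the x axis, at day 30 and day 15. Abcb1a at day 30, at -0.84, is the only filled point, the sign for an adjusted p below 0.05.

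Genes induced through Nr1i2 and Nr1i3 were in part lower in KO. This list and those that follow were chosen with earlier results of these data known, so their counts only describe the genes listed. Of 32 genes on this list, 25 were measured. At day 30, 4 of them were lower and none higher, where 0.943% of all genes were lower, with a median of -0.09 against -0.004 over all genes. These were the carboxylesterase gene Ces2a (-1.52, SE 0.17, limma adjusted p = 3.1e-04), the cytochrome P450 genes Cyp2c55 (-1.88, SE 0.33) and Cyp3a25 (-0.66, SE 0.15), and the glutathione transferase gene Gstm1 (-0.44, SE 0.09). Ces2a ran from 8.03 to 8.48 in KO and from 9.55 to 10.05 in WT at that age, without overlap. At day 15, 3 were lower and none higher, where 2.03% of all genes were lower, namely Cyp3a16 (-1.47, SE 0.26), Cyp2c55 (-1.41, SE 0.33) and Gstm1 (-0.45, SE 0.09). Some members of the Cyp3a and Gstm families are close in sequence, and whether a feature also reads a relative was not tested.

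With age, 8 of the 25 rose and 2 fell in KO, where 31% of all genes passed, with the largest rise in Cyp2b10, the classical target of Nr1i3 (3.26, SE 0.20), and the largest fall in Cyp3a25 (-1.32, SE 0.15). In WT 9 rose and 2 fell, where 29.3% of all genes passed, from Cyp2b10 (3.45, SE 0.20) to Cyp3a16 (-2.71, SE 0.26). Cyp2b10 ran from 9.36 to 10.04 at day 30, against 6.35 to 6.60 at day 15, in KO, and from 10.05 to 10.47 at day 30, against 6.44 to 7.21 at day 15, in WT. The ages were far apart in both genotypes. Gstm1 rose by 1.34 in KO and by 1.33 in WT, and Cyp3a13 by 0.77 in KO and by 0.97 in WT. The list's median was 0.06 in KO and 0.13 in WT. Ces2a had a log2 difference of -0.42 in KO (SE 0.17, limma adjusted p = 0.079) and rose by 0.84 in WT (SE 0.17, limma adjusted p = 0.0021). For the difference of the genotype effects between ages it passed, at -1.26 (SE 0.24, limma adjusted p = 0.043). It was the only gene of this list to pass that test, and the call was not checked under the alternatives.

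Of 12 listed genes induced through Ahr, 10 were measured. In limma 0 passed for genotype at either age, with 1 at an unadjusted p below 0.05 at each age. Of all genes, 1.98% passed at day 30 and 3.83% at day 15, so 0 of 10 says little about this list. The lowest genotype value in the list was that of Cyp1a1 at day 30 (-0.69, SE 0.36, limma adjusted p = 0.53). In each genotype 6 of the 10 rose with age and 1 fell, where 31% of all genes passed in KO and 29.3% in WT. Cyp1a1, the gene most used as a readout of Ahr, rose by 1.09 in KO (SE 0.36, limma adjusted p = 0.036) and by 1.88 in WT (SE 0.36, limma adjusted p = 0.0015). At day 30 it ran from 6.83 to 7.39 in KO and from 6.60 to 8.58 in WT, so the WT pools varied widely. Ahrr, the repressor of Ahr, rose by 0.70 in KO and by 0.65 in WT, and Cyp2s1 by 0.70 in KO and by 0.87 in WT. The list's median was 0.36 in KO and 0.28 in WT. Ahr itself differed by 0.02 or less with age.

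Genes induced through Nfe2l2, the oxidative stress factor that also drives several of the pumps, rose with age in 11 of 15 measured cases in KO, with 2 lower, and in 10 in WT, with none lower, where 13.8% of all genes rose in KO and 12.3% in WT. The median was 0.62 in KO and 0.71 in WT, where all genes had 0.03 in KO and 0.02 in WT. Gsr, glutathione reductase, rose by 1.22 in KO and by 1.19 in WT, and Txnrd1, thioredoxin reductase, by 0.86 in KO and by 0.77 in WT. For genotype, 1 was higher and 2 lower in KO at day 30, where 1.04% of all genes were higher and 0.943% lower. At day 15, 1 was higher and 3 lower, where 1.81% of all genes were higher and 2.03% lower. Gsr was the higher gene at day 30 (0.42) and at day 15 (0.38). The lower genes at day 30 were Gstm1 (-0.44) and Gclm, a subunit of the enzyme that limits glutathione synthesis (-0.31). At day 15 they were Gstm1 (-0.45), Gsta3 (-0.30) and the peroxiredoxin gene Prdx1 (-0.21). The lists share genes, so their counts are not separate. Gstm1 and Cbr3 were also counted among the genes induced through Nr1i2 and Nr1i3, and Nqo1 among those induced through Ahr. Ahrr and Tiparp were counted both among the genes induced through Ahr and among the receptor partners below.

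The list of other ABC genes held 19, mostly of the Abcb, Abcc and Abcg families, and does not cover all ABC genes. Of these, 18 were measured, and 0 passed between genotypes at day 30 in limma (4 at an unadjusted p below 0.05). Their values ran from -0.18 to 0.28, and 1.98% of all genes passed at that age. At day 15, 3 of these 18 were lower in KO, where 2.03% of all genes were lower. They were the bile salt pump Abcb11 (-1.93, SE 0.12) and the sterol pumps Abcg5 (-0.57, SE 0.06) and Abcg8 (-0.42, SE 0.05). Abcb11 ran from 5.54 to 5.98 in KO and from 5.52 to 5.83 in WT at day 30, and from 5.56 to 5.93 in KO and from 7.60 to 7.71 in WT at day 15. It was thus above the other groups only on the WT arrays of day 15. With age 4 rose and 7 fell in KO, and 2 rose and 8 fell in WT, where 31% of all genes passed in KO and 29.3% in WT. Abcg5 fell by 0.79 in KO and by 1.33 in WT, Abcg8 fell by 0.82 in KO and by 1.30 in WT, and the mitochondrial transporter gene Abcb10 rose by 1.25 in KO and by 0.98 in WT. For the difference of the genotype effects between ages, 4 of the 18 passed, all above 0. Of all genes, 0.456% passed that test, 0.231% above 0. The 4 were Abcb11 (2.05, SE 0.17), Abca1, the cholesterol exporter gene (0.58, SE 0.11), Abcg5 (0.54, SE 0.09) and Abcg8 (0.48, SE 0.07). Their sign was opposite to that of Abcb1a (-1.14).

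Partners and co-regulators of the receptors passed for genotype in 0 of 15 measured cases at either age in limma, with 3 at an unadjusted p below 0.05 at day 30 and 1 at day 15. With age 5 rose and 1 fell in KO, and 6 rose and 1 fell in WT, shares of the 15 not far from the 31% of all genes in KO and 29.3% in WT. The coactivator gene Ppargc1a rose by 1.0997 in KO and by 0.664 in WT, and Nr0b2, a repressor of nuclear receptors, fell by 0.86 in KO and by 0.75 in WT. Of 16 measured carriers for drug and organic ion uptake, 1 passed for genotype at day 30 and none at day 15. Of all genes, 1.98% passed at day 30 and 3.83% at day 15. At an unadjusted p below 0.05 there were 7 carriers at day 30 and 3 at day 15. Their median difference at day 30 was 0.15, against -0.004 over all genes. The carrier that passed was Slc15a1, for peptides and beta-lactams, higher in KO at day 30 (0.26, SE 0.06, limma adjusted p = 0.047). With age 8 of these carriers rose and 3 fell in KO, and 7 rose and 3 fell in WT. Beside these stand 31% of all genes passing in KO and 29.3% in WT. The ergothioneine carrier gene Slc22a4 was higher by 1.18 in KO and by 1.19 in WT.

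**Figure D4:**
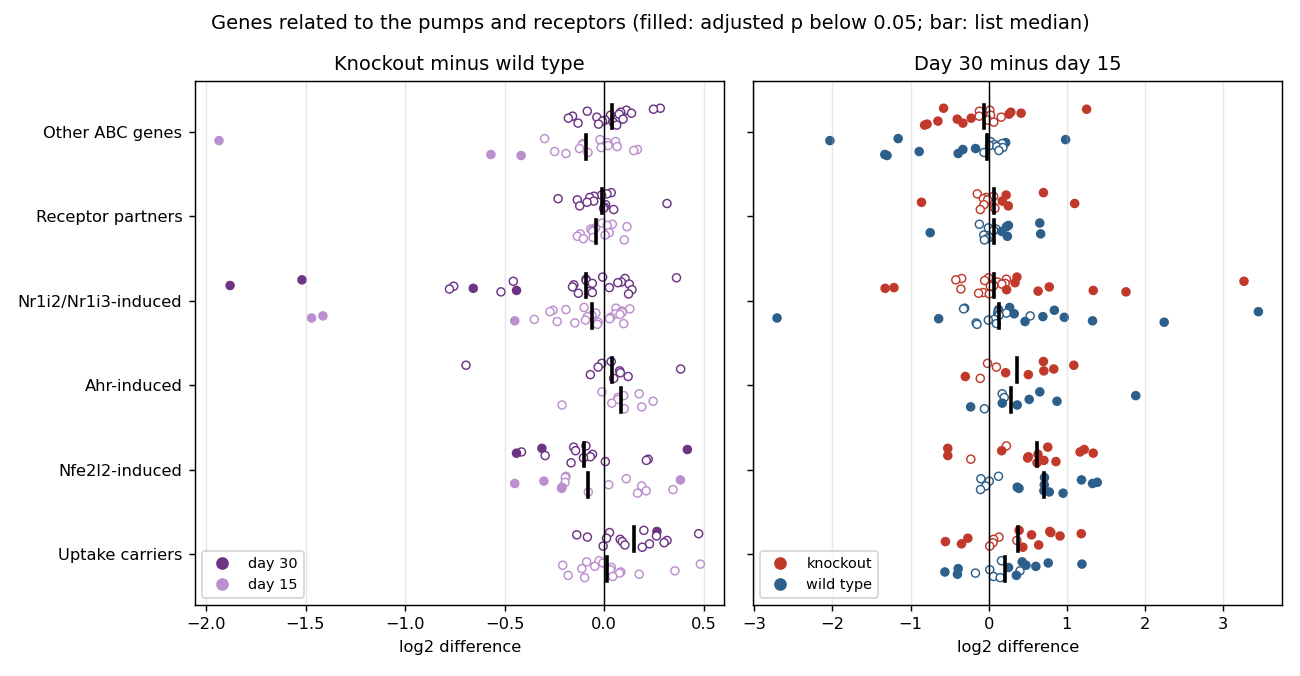
Log2 differences (x axis) of the measured genes of 6 related lists, for KO minus WT at each age (left) and day 30 minus day 15 in each genotype (right). Each point is a gene, filled where the adjusted p was below 0.05, and black bars are list medians. Falls in KO stand out for Cyp2c55 (-1.88) and Ces2a (-1.52) at day 30, and Nfe2l2-induced genes lie mostly above 0 with age.

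Over the 12 arrays, the genes with the highest Pearson correlation to a pump or receptor are given as a description, since age and genotype groups shape these values. For Abcb1a they were Cblif (r = 0.91), Dhx32 (r = 0.91) and Gm10244 (r = 0.89), and for Abcc2 Lpin2, Adgrl2 and Cables1 (r = 0.92 each). For Abcc3 they were Serinc2 (r = 0.996), Acss2 (r = 0.994) and Tm7sf2 (r = 0.992). Abcg2 was closest to Mbd2 (r = 0.96), Cdhr5 (r = 0.93) and Cry1 (r = 0.91), and Nr1i2 to Thbs1 (r = 0.95), Ilk (r = 0.93) and Col18a1 (r = 0.93). Abcb1b was closest to Kif23 (r = 0.967), Nr1i3 to Tst (r = 0.935), Ahr to Polr2h (r = 0.909) and Abcc4 to Vmn2r105 (r = 0.866).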

How the data were processed

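Total RNA (5.5 ug per array) was hybridised to Affymetrix arrays, 12 in all. The deposited values are log2 expression values made with RMA in Affymetrix Expression Console 1.1, per the submitters' processing notes. No genome build is named for the array's annotation in the labels. Of 35557 features, 21789 carried 1 gene symbol, 1621 several and 12147 none. The feature with the highest mean stood for each of 19938 genes. A fit with 4 group means used limma 3.58.1 in R 4.3.3 with Benjamini-Hochberg adjustment, and was tested on simulated data. All 9 genes and Onecut2 are named, and from each related list up to 4 genes with the smallest p per comparison, defining markers, and the largest and smallest change. The genes and lists were chosen with earlier results of these data known. The count of arrays highest in their group was made after the values were seen. Intervals are at 95%. Scan or batch dates were not used here.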

Additional observations from a re-analysis of the deposited data

Results flagged for a closer look

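Abcb1a was singled out because its genotype difference was not the same at the 2 ages. KO minus WT was -0.84 at day 30 and 0.29 at day 15, and the difference between these, tested as an interaction in limma, was -1.14 (SE 0.20, adjusted p = 0.025, n = 3 arrays per group). All 3 KO arrays were below all 3 WT arrays at day 30, while the groups overlapped at day 15. The interaction call held in 12 of 22 alternatives. It ended on leaving out any of several single arrays, and with Xist (limma adjusted p = 0.11) or the smooth muscle mean (limma adjusted p = 0.19) as a covariate.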

How the results depend on the processing

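No called value of the 9 genes changed sign under an alternative. Calls of single genes of the related lists were not checked under the alternatives. With only the arrays of the 2 groups compared, 480 genes passed for genotype at day 15 (0 of the 9 genes) and 237 at day 30. An intensity trend gave 596 genes at day 30 and 177 for the difference of the genotype effects (2 of the 9), and a filter on dim genes gave 598 and 160. Array weights gave 1218 genes at day 15 and 155 for the difference. Equal epithelial marker means moved the median of all genes by 0.10 for the difference and by -0.15 for age in WT. That setting gave 1655 genes at day 15 (238 higher, 1417 lower, 0 of the 9, against 360 and 404 as deposited), 147 for the difference (118 and 29, against 46 and 45), 2039 higher and 4028 lower for age in KO (against 2753 and 3425), and 1165 and 6984 for age in WT (against 2455 and 3394). The smooth muscle mean as a covariate left 78 genes at day 15, 223 for age in KO, 37 for age in WT and 30 for the difference, and 0 of the 9 genes in each. Xist as a covariate left 185 genes at day 30, 3829 for age in WT and 33 for the difference, and 0 of the 9 genes at day 15 and for the difference. The causes of these moves were not tested.

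Leaving out 1 array gave 218 to 420 genes at day 30 (2 of the 9 each time), 340 to 782 at day 15 (0 to 2), 4990 to 6258 for age in KO (2 to 5), 4561 to 6175 for age in WT (4 each time) and 47 to 123 for the difference (0 to 1). Counts dropped most at day 30 without KO day 30 replicate 1 (225) or WT day 30 replicate 2 (260) or 3 (218), at day 15 without KO replicate 2 (340) or 3 (445) or WT replicate 1 (505), 2 (429) or 3 (412), and for the difference without KO day 15 replicate 2 (49) or 3 (56), WT day 15 replicate 2 (47) or 3 (60) or WT day 30 replicate 3 (47). Correlations of same-numbered deviations ran from -0.25 to 0.36, and 5 of 12 pairs were over 0.1. Between KO and WT at day 15 they were 0.36, -0.009 and 0.26 for replicates 1, 2 and 3. Differently numbered pairs of these groups ran from -0.36 to 0.19. Between KO and WT at day 30 the same-numbered values were -0.11, 0.12 and -0.24. Whether replicate numbers pair the arrays was not tested. With the replicate block 331 genes passed at day 30 (2 of the 9), 611 at day 15 (0), 6039 for age in KO (4), 5726 for age in WT (4) and 80 for the difference (1). The number of pools, 3 per group, limits the precision, and the dim Abcb1b feature was left out by the filter on dim genes.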
